A study of Homo sapiens with 6 samples.

Results

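The transcripts described here encode the enzymes that copy DNA at the replication fork and the factors that put chromatin back behind it. They are 38 genes chosen by name, and all 38 had a row among the 33392 genes of the expression table. They comprise DNA polymerase α with its primase, polymerases δ and ε, the sliding clamp and its loader, the single-strand binding protein RPA, the enzymes that finish Okazaki fragments, the histone chaperones CAF-1 and ASF1, the fork protection factors, and 4 genes tied to S phase. RNA was sequenced from HK-2 cells, an immortalised line of human renal proximal tubule epithelium. In 3 libraries the cells carried an siRNA against the protein kinase DYRK2 (siDYRK2) and in 3 a scramble siRNA, and every library was from cells stimulated with TGF-β1 and carries a 48 h label. The cytokine was therefore common to both groups, and cells without it were not analysed here. No label says that the 3 libraries of a group came from different cultures, and the p-values therefore cover only library-to-library spread, which may be technical.

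A replication fork is opened by a helicase and coated by RPA. Primase and polymerase α lay down short RNA-DNA primers, the RFC complex loads the ring-shaped clamp PCNA onto them, and polymerases δ and ε extend them on the lagging and leading strands. The fragments of the lagging strand are trimmed and sealed, and CAF-1 and ASF1 deliver histones H3 and H4 to the new DNA. Many of these genes are transcribed in late G1 and S phase under E2F transcription factors, so in a culture their transcript levels are known to follow the share of cells that replicate.

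Expression was given as FPKM, fragments scaled to transcript length and to the mapped fragments of the library, with totals of 252318 to 255378 per library. The target of the siRNA was lower in its group, since DYRK2 stood at 1.45, 1.54 and 1.49 FPKM in the siDYRK2 libraries, against 5.84, 6.06 and 5.96 FPKM in the scramble libraries (exact two-sided permutation p = 0.1, the smallest that 3 against 3 libraries allow; limma adjusted p = 2e-06). Mitochondrially encoded transcripts took 27.6% to 27.8% of the FPKM in the siDYRK2 libraries and 26.4% to 27.5% in the scramble libraries. Of the 6 general epithelial markers, KRT7 rose (log2 fold change 0.50), KRT18, KRT19 and CDH1 fell (log2 fold changes −0.50, −0.69 and −1.06), and KRT8 and EPCAM were not called. The keratins averaged 49.4 to 542 FPKM with siDYRK2 and 48.2 to 382 FPKM with the scramble siRNA, and CDH1, or E-cadherin, averaged 1.17 FPKM with siDYRK2 and 2.97 FPKM with the scramble siRNA. The part of these differences in the fork transcripts was not tested. The renal factor PAX8 reached at most 0.09 FPKM with siDYRK2 and 0.19 FPKM with the scramble siRNA. The 7 fibroblast and mesangial markers summed to 0.64 to 0.81 FPKM with siDYRK2 and 0.37 to 0.42 FPKM with the scramble siRNA, most of it COL1A1, and the 5 endothelial markers to 0.10 to 0.16 FPKM with siDYRK2 and 0.05 to 0.09 FPKM with the scramble siRNA. Of 9 renal epithelial markers 8 had a row, with PAX2, CDH16 and SLC34A1 at 0.02 FPKM or less, and they summed to 7.01 to 7.35 FPKM with siDYRK2 and 8.54 to 8.99 FPKM with the scramble siRNA. CD68, a lysosomal protein used as a macrophage marker, made up nearly all of the immune list, at 16.99, 16.33 and 16.89 FPKM in the siDYRK2 libraries, against 11.07, 11.41 and 17.49 FPKM in the scramble libraries, while the lymphocyte and leukocyte markers PTPRC, CD3E and MS4A1 had no value here.

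Most transcripts of the fork machinery were higher in the siDYRK2 libraries, by less than 1.8-fold. Polymerase δ was mixed, with 2 of its 4 subunits called higher and 1 lower. All 38 members passed the expression filter, a mean of at least 0.5 FPKM over the 6 libraries. Of these, 32 rose, 1 fell and 5 were not called by limma at an adjusted p under 0.05 over all genes tested. Among the 15121 genes tested, 20.4% were called higher and 17.9% lower. The difference of group means of log2(FPKM + 0.5), siDYRK2 minus scramble, is called the log2 fold change, and its median was 0.43 over the members and 0.01 over all genes tested, whose 10th and 90th percentiles were −0.38 and 0.33. The log2 fold changes of 26 members lay above that 90th percentile. Ratios of mean FPKM ran from 0.789 for POLD4 to 1.79 for POLA2, and 28 of the 38 lay between 1.2 and 1.7. The libraries of the groups did not overlap for 35 members, 33 with siDYRK2 above and 2 below, while they did not overlap for 51.7% of all genes tested. The FPKM of the members added up to 737.9, 734.0 and 735.0 in the siDYRK2 libraries, against 566.0, 565.9 and 549.7 in the scramble libraries. In bulk RNA, a larger share of replicating cells and more transcript per cell cannot be told apart.

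**Figure D1:**
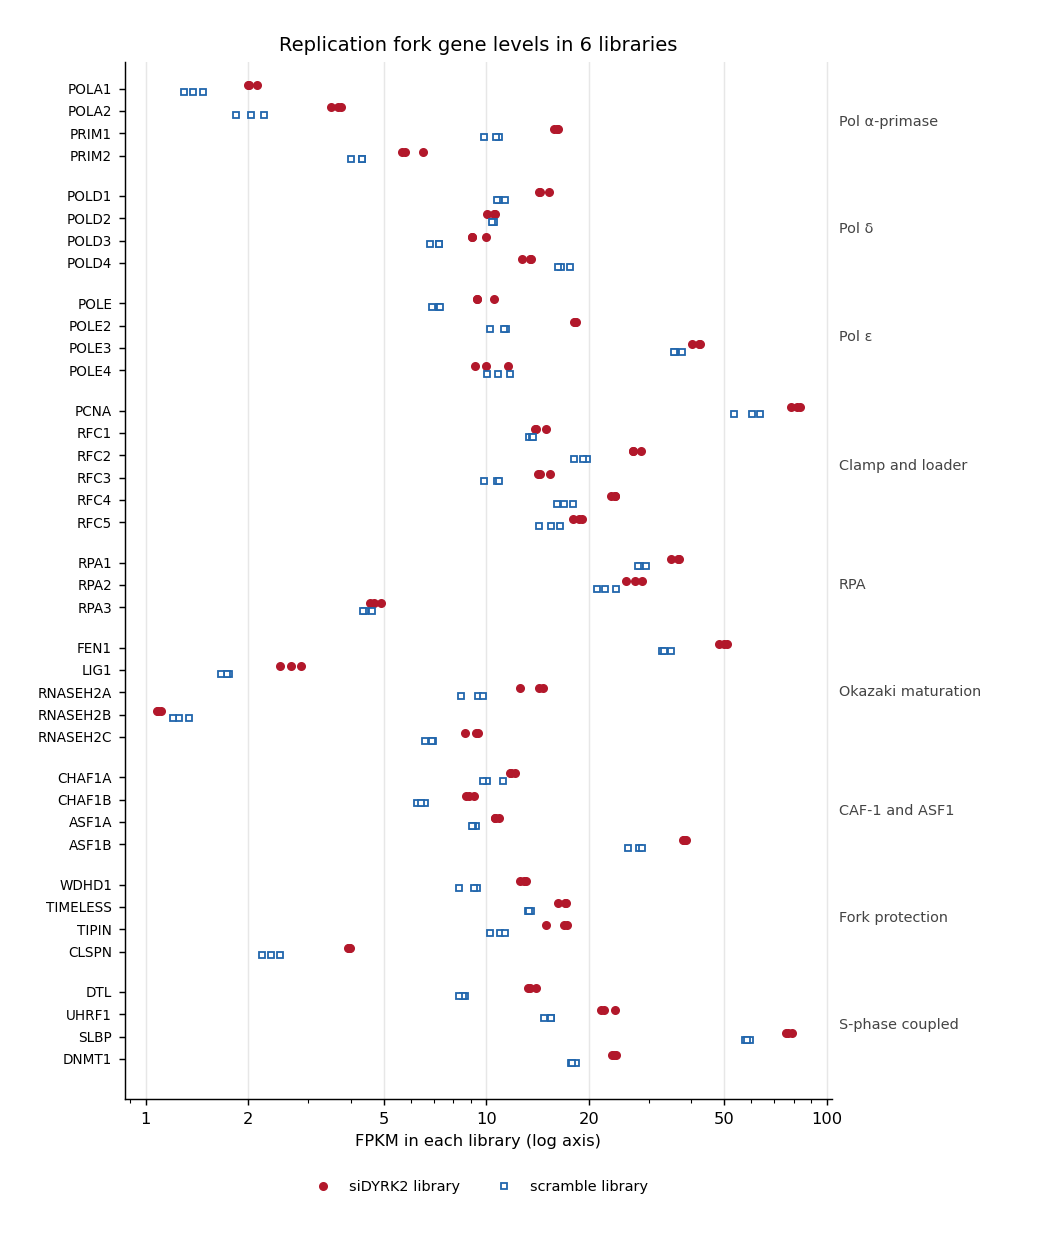
FPKM of each of the 38 genes in each library on a log axis, with siDYRK2 libraries as filled circles above and scramble libraries as open squares below, grouped by complex. In 33 rows the circles lie to the right of all squares, in the rows of POLD4 and RNASEH2B they lie to the left, and in those of POLD2, POLE4 and RPA3 they overlap.

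Proliferation markers moved with the members between the groups, while 20.4% of all genes tested were called higher. All 5 markers of cycling cells rose, with BUB1 nearest the threshold (limma adjusted p = 0.046), and their summed level was 107 to 119 FPKM in the siDYRK2 libraries and 64.6 to 79.1 FPKM in the scramble libraries. MKI67, the Ki-67 antigen, stood at 12.62, 13.25 and 15.52 FPKM in the siDYRK2 libraries, against 9.13, 8.14 and 7.36 FPKM in the scramble libraries. Within the siDYRK2 group the 2 sums were ordered differently, but those of the fork members were nearly equal, and 3 libraries cannot relate them. The markers summed to 107.36, 111.03 and 118.99 FPKM in replicates 1, 2 and 3, and the fork members to 737.86, 734.05 and 735.01 FPKM. Scramble replicate 3 had the lowest value of all 5 markers, and also the lowest summed level of the fork members. Without that library 31 members were called higher, and the members' median log2 fold change was 0.40. The part of cell proliferation in the higher fork transcripts was not tested.

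The promoters of these genes were searched for 5 short motifs, because the members moved together. Promoter sequences from 250 bases before to 50 bases after the annotated start were taken from RefSeq (GRCh38.p14) and matched 35 of the 38 members by symbol, all but POLD3, RPA2 and RPA3. An E2F motif, taken as TTTCCCGC, TTTGGCGC, TTTCGCGC or TTTGCCGC on either strand, was present for 13 of the 35 members (37.1%), against 6.95% of 9738 tested protein-coding genes, 9.31% of the 2417 of them called higher, and 3.31% of all 35116 promoters in the table. A gene was counted once if any of its listed promoters held a match. The reason is that TTTGGCGC can overlap its own match on the other strand and some genes have several promoters. The shares of all promoters, here and for the other motifs, instead count each promoter singly. Counted by gene, 5.4% of all 15843 protein-coding genes with a promoter held an E2F motif. The median log2 fold change was 0.51 for the 13 members with the motif and 0.40 for the 22 without it, a difference that was not tested. The 13 were POLA1, POLA2, POLE, POLE2, POLE4, PCNA, RFC3, LIG1, TIPIN, CLSPN, DTL, UHRF1 and DNMT1. Of these, POLE4 was not called and the other 12 rose, beside 32 of all 38 members and 20.4% of all genes tested. A match is a description of the letters and not a measured binding site.

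The following 7 windows are each on the strand of its gene with the 8 motif letters in capitals. They are the 5 members with the motif that had the largest log2 fold changes, the clamp gene PCNA, and POLE4 as the member that carries the motif and was not called. Where the motif lies on the opposite strand, the capitals show its reverse complement.
POLA2 at chr11:65261901-65261924, plus strand: gctcccggTTTCGCGCatgcgtgc
POLE2 at chr14:49688204-49688227, minus strand: cggcggtgGCGCCAAAtcgcaaat
CLSPN at chr1:35769968-35769991, minus strand: ctggctggGCGGGAAAgcaagaac
DTL at chr1:212035732-212035755, plus strand: gacgtcagTTTGGCGCggagtttg
TIPIN at chr15:66356736-66356759, minus strand: cgcacggaTTTGGCGCcaaacgct
PCNA at chr20:5126666-5126689, minus strand: cgtcagggGCGGGAAAaggcgtgc
POLE4 at chr2:74958604-74958627, plus strand: cagcccgcGCGGGAAAgggcctgc

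The capitals began 53 bases before the annotated start in POLA2, 59 in PCNA, 66 in TIPIN and 31 in POLE4. In DTL, POLE2 and CLSPN they began 8, 5 and 5 bases before it. In TIPIN the lower-case letters that follow complete the same motif on the other strand, so the pair forms a palindrome.

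The other motifs set the members less far from the tested genes. The CCAAT box, CCAAT on either strand, was present for 20 of 35 members (57.1%), against 43.3% of tested protein-coding genes and 34.6% of all promoters. The GC box, GGGCGG, was present for 26 members (74.3%), against 78.9% and 45.0%. The cell-cycle homology region, TTTGAA or TTCGAA, which is known from late cell-cycle promoters, was present for ASF1B and POLE3 only among the 35 members (5.71%), against 14.8% and 16.4%. TATAAA was found for 0 of the 35 members, against 8.04% and 11.5%. These shares were not tested, since members of 1 pathway are not independent draws. Median log2 fold changes of members with and without the motif were 0.38 and 0.46 for the CCAAT box and 0.41 and 0.55 for the GC box. For the cell-cycle homology region they were 0.33 and 0.45. These splits ran opposite to that of the E2F motif, and none was tested.

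**Figure D2:**
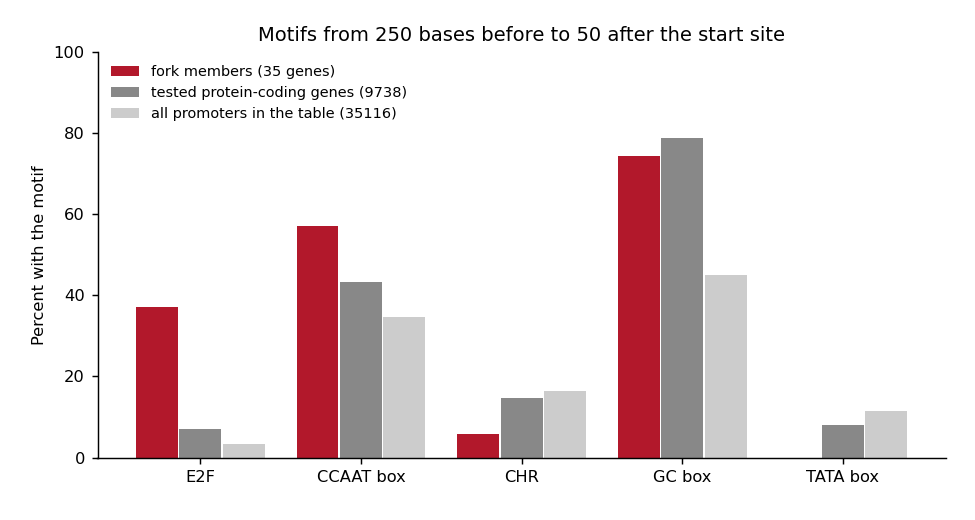
Percent of genes or promoters with each motif in the window from 250 bases before to 50 after the annotated start, for 35 fork members, 9738 tested protein-coding genes and all 35116 promoters in the table. The E2F motif stands at 37.1% in the members and 6.95% in the tested genes, while the GC box is at a similar share in both, 74.3% and 78.9%.

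All 4 subunits of DNA polymerase α-primase rose, and their median log2 fold change was 0.52. POLA2, the regulatory subunit that carries the α catalytic subunit, stood at 3.67, 3.50 and 3.74 FPKM in the siDYRK2 libraries, against 1.84, 2.04 and 2.22 FPKM in the scramble libraries. This log2 fold change was level with that of POLE2, and which of them was larger changed with the pseudocount and the libraries used (log2 fold change 0.71, SE 0.0712, limma adjusted p = 0.00035). It placed POLA2 at rank 206 of the 15121 genes tested. Exons of POLA2 share 2012 bases with another protein-coding annotation on the same strand, ENSG00000285816, which stood at 3.81 FPKM with siDYRK2 and 5.33 FPKM with the scramble siRNA (log2 fold change −0.38, limma adjusted p = 0.19), so reads could be split between them. PRIM1, the catalytic subunit of primase, stood at 16.08, 16.24 and 15.85 FPKM in the siDYRK2 libraries, against 10.92, 10.71 and 9.82 FPKM in the scramble libraries (log2 fold change 0.59, SE 0.0461, limma adjusted p = 0.00011). PRIM2, the iron-sulfur subunit of primase, rose 1.42-fold to 5.98 FPKM. POLA1, the polymerase α catalytic subunit, had the lowest level of the 4, with 2.0, 2.13 and 2.01 FPKM in the siDYRK2 libraries, against 1.47, 1.38 and 1.30 FPKM in the scramble libraries. In each of the 4 genes every siDYRK2 library lay above every scramble library. Fold changes on the log2(FPKM + 0.5) scale understate the change of genes as low as POLA1 and POLA2, whose mean FPKM rose 1.48-fold and 1.79-fold.

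The subunits of DNA polymerase δ, the lagging-strand polymerase, went different ways. POLD1, its catalytic subunit, stood at 15.26, 14.32 and 14.41 FPKM in the siDYRK2 libraries, against 10.86, 10.77 and 11.37 FPKM in the scramble libraries (log2 fold change 0.40, SE 0.0414, limma adjusted p = 0.0004). POLD3, the accessory subunit that binds PCNA and is also shared with the translesion polymerase ζ, rose 1.32-fold to 9.37 FPKM (limma adjusted p = 0.0015). Exons of POLD3 share 123 bases with a noncoding RNA gene on the same strand, so reads could be split between them. That gene fell to 1.82 FPKM with siDYRK2, against 3.52 FPKM with the scramble siRNA (log2 fold change −0.79, limma adjusted p = 0.00029). POLD2, which joins the catalytic subunit to POLD3, stood at 10.61, 10.03 and 10.53 FPKM in the siDYRK2 libraries, against 10.47, 10.54 and 10.40 FPKM in the scramble libraries. The groups overlap, and its log2 fold change had a 95% interval of −0.10 to 0.08. POLD4 (GRCh38 chromosome 11, 67350777 to 67356972, minus strand), the smallest subunit, which is known to be degraded after DNA damage, was the single member that fell. It stood at 13.56, 13.39 and 12.76 FPKM in the siDYRK2 libraries, against 16.53, 16.20 and 17.57 FPKM in the scramble libraries (log2 fold change −0.33, SE 0.0438, limma adjusted p = 0.0012), and all 3 siDYRK2 libraries lay below the scramble libraries. The ratio of POLD4 to POLD1, per length, was 0.889, 0.935 and 0.885 in the siDYRK2 libraries, against 1.52, 1.5 and 1.55 in the scramble libraries. POLD4 shares 650 exonic bases with another annotated gene on the same strand, which averaged 0.22 FPKM with siDYRK2 and 0.18 FPKM with the scramble siRNA.

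In DNA polymerase ε, the leading-strand polymerase, 3 of 4 subunits rose. POLE2, the second-largest subunit (GRCh38 chromosome 14, 49643555 to 49688422, minus strand), stood at 18.39, 18.19 and 18.06 FPKM in the siDYRK2 libraries, against 11.43, 11.24 and 10.26 FPKM in the scramble libraries (log2 fold change 0.71, SE 0.0462, limma adjusted p = 5.4e-05). The siDYRK2 libraries lay close together and well above the scramble libraries. POLE, the catalytic subunit, stood at 9.41, 9.39 and 10.53 FPKM in the siDYRK2 libraries, against 7.27, 7.32 and 6.94 FPKM in the scramble libraries, which is 1.36-fold higher in the mean (limma adjusted p = 0.0011). POLE3 and POLE4 are small histone-fold proteins that pair with each other and bind histones H3 and H4. POLE3, which also belongs to a chromatin remodelling complex, rose 1.14-fold, with 41.5 ± 1.29 FPKM with siDYRK2 and 36.3 ± 1.08 FPKM with the scramble siRNA (SD, n = 3 each). POLE4 stood at 10.01, 9.25 and 11.56 FPKM in the siDYRK2 libraries, against 10.02, 10.81 and 11.77 FPKM in the scramble libraries. Its groups overlap (log2 fold change −0.08, 95% interval −0.29 to 0.13, limma adjusted p = 0.51).

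PCNA and the small subunits of its loader rose together, and the large subunit was not called. PCNA (GRCh38 chromosome 20, 5114953 to 5126626, minus strand), the sliding clamp that tethers polymerases and many other fork factors to DNA, had the highest group means of the 38 members, although SLBP was above it in replicate 3 of each group. It stood at 83.20, 81.55 and 78.54 FPKM in the siDYRK2 libraries, against 63.72, 60.04 and 53.30 FPKM in the scramble libraries (log2 fold change 0.46, SE 0.0635, limma adjusted p = 0.0014). Of the loader's small subunits, RFC2 stood at 28.46, 26.86 and 26.86 FPKM in the siDYRK2 libraries, against 18.13, 19.81 and 19.17 FPKM in the scramble libraries (log2 fold change 0.51, SE 0.0437, limma adjusted p = 0.00017). RFC3 and RFC4 each rose 1.39-fold, with limma adjusted p of 0.00062 and 0.00025. RFC5 rose 1.21-fold, and its nearest libraries were 17.9 FPKM with siDYRK2 and 16.5 FPKM with the scramble siRNA. RFC1, the large subunit that is found only in the replicative form of the loader, stood at 13.90, 14.92 and 13.98 FPKM in the siDYRK2 libraries, against 13.34, 13.66 and 13.75 FPKM in the scramble libraries. The 2 groups of RFC1 did not overlap, but the difference was small and was not called (log2 fold change 0.07, 95% interval −0.03 to 0.16, limma adjusted p = 0.22). The ratio of RFC2 to RFC1 was 2.05, 1.80 and 1.92 in the siDYRK2 libraries, against 1.36, 1.45 and 1.39 in the scramble libraries.

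The alternative clamp loaders replace RFC1 by another large subunit and keep RFC2 to RFC5. Of the 6 genes in their list, which includes the PCNA-binding protein PCLAF, 5 rose and 1 fell. Over all genes tested 20.4% were called higher and 17.9% lower. CHTF18, the large subunit of the loader that acts in sister chromatid cohesion, rose 1.65-fold to 6.75 FPKM (limma adjusted p = 0.00036), and its partner DSCC1 rose 1.60-fold. PCLAF stood at 9.38, 9.08 and 8.75 FPKM in the siDYRK2 libraries, against 4.12, 4.87 and 3.69 FPKM in the scramble libraries (log2 fold change 1.02, SE 0.0885, limma adjusted p = 0.00018). The other subunit of that loader, CHTF8, was the gene that fell, with 28.10, 22.96 and 23.96 FPKM in the siDYRK2 libraries, against 30.33, 32.13 and 31.60 FPKM in the scramble libraries. It is named after its values were seen.

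RPA, the trimer that coats single-stranded DNA, rose in its 2 larger subunits. RPA1, the main DNA-binding subunit, stood at 34.82, 36.74 and 36.53 FPKM in the siDYRK2 libraries, against 28.26, 29.46 and 27.85 FPKM in the scramble libraries (log2 fold change 0.33, SE 0.0365, limma adjusted p = 0.0005). RPA2, which is phosphorylated in the replication stress response, rose 1.21-fold, with 27.2 ± 1.42 FPKM with siDYRK2 and 22.5 ± 1.51 FPKM with the scramble siRNA (SD, n = 3 each). RPA3, the smallest subunit, stood at 4.90, 4.56 and 4.67 FPKM in the siDYRK2 libraries, against 4.62, 4.40 and 4.34 FPKM in the scramble libraries, and the groups overlap (log2 fold change 0.07, 95% interval −0.04 to 0.19). RPA3 shares 118 exonic bases with UMAD1 on the opposite strand, which fell to 2.03 FPKM with siDYRK2, against 5.40 FPKM with the scramble siRNA (log2 fold change −1.22, limma adjusted p = 2.8e-05). No source used here says whether the counting used strand, so reads of RPA3 and UMAD1 cannot be told apart where they overlap.

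Of the enzymes that mature Okazaki fragments, 4 of 5 rose. FEN1, the nuclease that removes displaced primer flaps, stood at 50.77, 48.17 and 49.69 FPKM in the siDYRK2 libraries, against 32.88, 34.87 and 33.30 FPKM in the scramble libraries (log2 fold change 0.55, SE 0.0356, limma adjusted p = 5.2e-05). LIG1, the ligase that seals the fragments, was low in both groups, with 2.85, 2.48 and 2.67 FPKM in the siDYRK2 libraries, against 1.76, 1.73 and 1.66 FPKM in the scramble libraries, and rose 1.55-fold in mean FPKM. The ratio of FEN1 to LIG1 was 17.8, 19.4 and 18.6 in the siDYRK2 libraries, against 18.7, 20.2 and 20.1 in the scramble libraries, so these overlap. Exons of FEN1 share 49 bases with FADS2 on the same strand and 166 bases with TMEM258 on the opposite strand. FADS2 and TMEM258 both fell with siDYRK2 (log2 fold changes −1.27 and −0.34, limma adjusted p = 1.2e-06 and 0.021).

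Ribonuclease H2 removes ribonucleotides from DNA and has 3 subunits, which were not alike. RNASEH2A, the catalytic subunit, stood at 14.64, 12.55 and 14.32 FPKM in the siDYRK2 libraries, against 9.46, 9.75 and 8.44 FPKM in the scramble libraries (log2 fold change 0.56, SE 0.0741, limma adjusted p = 0.0011). RNASEH2C rose 1.34-fold to 9.16 FPKM, but 1439 of its exonic bases are shared with KAT5 on the opposite strand. KAT5 fell to 7.76 FPKM with siDYRK2, against 10.4 FPKM with the scramble siRNA (log2 fold change −0.40, limma adjusted p = 0.0033), so the pair went in opposite directions. RNASEH2B, the subunit that contacts PCNA, stood at 1.08, 1.11 and 1.09 FPKM in the siDYRK2 libraries, against 1.25, 1.34 and 1.2 FPKM in the scramble libraries. Every siDYRK2 library of RNASEH2B lay below the scramble libraries, and the difference was not called (log2 fold change −0.15, limma adjusted p = 0.17). Without limma's mean-variance trend its adjusted p was 0.048. The ratio of RNASEH2A to RNASEH2B was 13.6, 11.3 and 13.1 in the siDYRK2 libraries, against 7.57, 7.28 and 7.03 in the scramble libraries.

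All 4 genes of replication-coupled histone deposition rose. CHAF1B, the middle subunit of CAF-1, stood at 8.87, 9.21 and 8.71 FPKM in the siDYRK2 libraries, against 6.60, 6.24 and 6.44 FPKM in the scramble libraries (log2 fold change 0.45, SE 0.0425, limma adjusted p = 0.00028). CHAF1A, the large subunit that binds PCNA, stood at 11.76, 11.82 and 12.16 FPKM in the siDYRK2 libraries, against 11.22, 10.04 and 9.76 FPKM in the scramble libraries (log2 fold change 0.20, SE 0.0552, limma adjusted p = 0.027). The call of CHAF1A was lost in 7 of 16 alternative analyses, with adjusted p up to 0.088, among them the fits without any 1 siDYRK2 library and without scramble replicate 2 or 3. ASF1B, the ASF1 paralog known to follow proliferation, stood at 38.67, 37.84 and 38.12 FPKM in the siDYRK2 libraries, against 26, 28.07 and 28.65 FPKM in the scramble libraries (log2 fold change 0.46, SE 0.0412, limma adjusted p = 0.0002). ASF1A, the paralog that also serves histone deposition outside replication, rose 1.17-fold, with 10.7 ± 0.162 FPKM with siDYRK2 and 9.17 ± 0.121 FPKM with the scramble siRNA (SD, n = 3 each). The ratio of ASF1B to ASF1A was 3.64, 3.47 and 3.59 in the siDYRK2 libraries, against 2.79, 3.07 and 3.16 in the scramble libraries, and that of CHAF1B to CHAF1A was 0.754, 0.779 and 0.716 in the siDYRK2 libraries, against 0.588, 0.622 and 0.660 in the scramble libraries.

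The fork protection factors also rose, 4 of 4. CLSPN, the adaptor claspin through which ATR activates CHK1, stood at 3.95, 3.93 and 3.97 FPKM in the siDYRK2 libraries, against 2.48, 2.33 and 2.20 FPKM in the scramble libraries (log2 fold change 0.65, SE 0.0573, limma adjusted p = 0.0002). The 3 siDYRK2 libraries of CLSPN were nearly identical, and its mean FPKM rose 1.69-fold. TIMELESS and TIPIN form a complex that keeps helicase and polymerase together. TIPIN stood at 17.20, 16.96 and 14.92 FPKM in the siDYRK2 libraries, against 10.27, 10.97 and 11.31 FPKM in the scramble libraries, and TIMELESS rose 1.26-fold to 16.8 FPKM (limma adjusted p = 0.00053 and 0.00058). WDHD1, the human counterpart of yeast Ctf4 that links the helicase to polymerase α, stood at 12.88, 13.05 and 12.54 FPKM in the siDYRK2 libraries, against 9.41, 9.23 and 8.31 FPKM in the scramble libraries (log2 fold change 0.49, SE 0.0523, limma adjusted p = 0.00044).

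The 4 genes that tie replication to histone supply, DNA methylation and protein turnover all rose. DTL, the receptor by which the CUL4 ubiquitin ligase destroys PCNA-bound substrates such as CDT1, stood at 13.21, 13.99 and 13.43 FPKM in the siDYRK2 libraries, against 8.66, 8.55 and 8.31 FPKM in the scramble libraries. It had the smallest adjusted p of the members (log2 fold change 0.64, SE 0.0389, limma adjusted p = 4e-05). UHRF1 recognises hemimethylated DNA behind the fork and recruits DNMT1, the maintenance methyltransferase. UHRF1 stood at 22.20, 21.68 and 23.86 FPKM in the siDYRK2 libraries, against 15.43, 15.49 and 14.80 FPKM in the scramble libraries, and DNMT1 at 23.35, 23.62 and 24.09 FPKM in the siDYRK2 libraries, against 18.39, 17.77 and 17.90 FPKM in the scramble libraries. Both differences were called (log2 fold changes 0.55 and 0.39, limma adjusted p = 0.00013 and 0.00015). SLBP, which binds the stem-loop of replication-dependent histone mRNAs, stood at 75.53, 76.63 and 79.08 FPKM in the siDYRK2 libraries, against 59.38, 57.32 and 58.02 FPKM in the scramble libraries (log2 fold change 0.40, SE 0.0305, limma adjusted p = 0.0001).

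**Figure D3:**
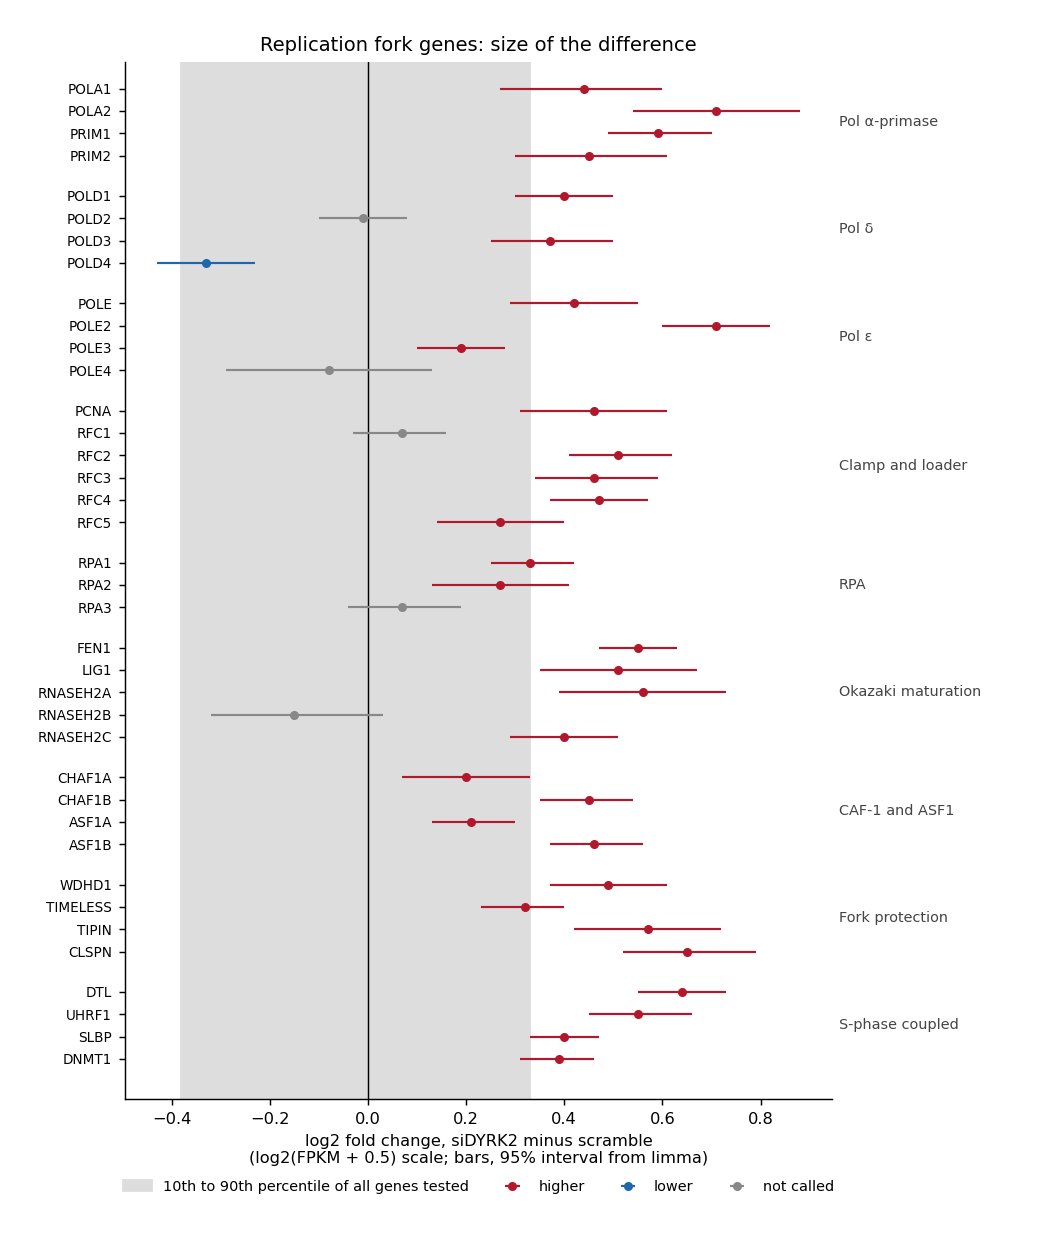
Log2 fold change of each fork gene, as siDYRK2 minus scramble, in log2(FPKM + 0.5), with its 95% interval from limma, coloured by call and grouped by complex, over a grey band from the 10th to the 90th percentile of all genes tested (−0.38 to 0.33). POLD2, POLE4, RFC1, RPA3 and RNASEH2B have intervals that reach 0, POLD4 lies below 0, and 26 genes lie to the right of the band.

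The subunits that did not rise were spread over the complexes. POLD2 and POLD4 belong to polymerase δ, POLE4 to polymerase ε, RFC1 to the loader, RPA3 to RPA and RNASEH2B to ribonuclease H2. Each of these complexes also had subunits that rose, and differences between subunits were described only by ratios. Among 15 ratios between partners, chosen with the values known, 11 did not overlap between the groups, the share for other gene pairs was not computed, and 3 against 3 libraries cannot give an exact permutation p below 0.1. The ratios that overlapped were those of PRIM1 to PRIM2, POLA2 to POLA1, POLE3 to POLE4 and FEN1 to LIG1. FPKM compares levels per length and says nothing of protein.

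Other genes of DNA replication were counted from lists chosen by function, beside 20.4% of all genes tested called higher and 17.9% lower. In the helicase list of MCM, CDC45 and GINS genes 11 of 12 rose and 0 fell, and the median of their log2 fold changes was 0.53. CDC45, the helicase cofactor, stood at 17.64, 15.61 and 16.13 FPKM in the siDYRK2 libraries, against 9.53, 10.28 and 10.03 FPKM in the scramble libraries. In the list of origin licensing and firing 11 of 14 rose, among them CDT1 (1.43-fold), the licensing factor, and CDC7 (1.49-fold), the kinase that fires origins. The gene of that list that fell, ORC4, an origin recognition subunit named after its values were seen, had a log2 fold change of −0.37.

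Nucleotide supply and the topoisomerases moved the same way as the members, while all genes tested were called higher at 20.4% and lower at 17.9%. In the deoxynucleotide list 10 of 11 rose, with RRM2 and TK1 (thymidine kinase) at 1.26 and 0.98 on the log2 scale. The gene that fell was RRM2B, the p53-inducible ribonucleotide reductase subunit, with 7.69, 7.84 and 7.09 FPKM in the siDYRK2 libraries, against 9.24, 9.74 and 9.28 FPKM in the scramble libraries. RRM2B is named after its values were seen. All 6 listed topoisomerases and nucleases rose. EXO1, a nuclease of mismatch repair and end resection, led with a 1.90-fold rise to 11.1 FPKM. TOP2A, also in this list, is among the proliferation markers counted above.

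A further list held E2F1, E2F2, E2F3, E2F7, E2F8, the E2F partner TFDP1 and the pocket proteins, and left out the other E2F factors. Of its 9 genes 7 rose and 1 fell, and E2F3 was not called, against 20.4% higher and 17.9% lower over all genes tested. E2F1, an activator of S-phase genes, stood at 27.21, 26.68 and 25.29 FPKM in the siDYRK2 libraries, against 16.33, 16.63 and 18.45 FPKM in the scramble libraries (log2 fold change 0.61, SE 0.0537, limma adjusted p = 0.0002), and E2F2, a second activator, rose 2.16-fold to 3.32 FPKM. RBL2, the pocket protein p130 that represses E2F targets in quiescent cells, fell to 10.76, 11.35 and 9.89 FPKM in the siDYRK2 libraries, against 17.04, 17.19 and 16.26 FPKM in the scramble libraries (log2 fold change −0.64, SE 0.0543, limma adjusted p = 0.00017). The other repressive members of the list rose (named after their values were seen). They were the repressors E2F7 and E2F8 (log2 fold changes 0.51 and 0.68) and the pocket proteins RB1 and RBL1 (log2 fold changes 0.20 and 0.21, limma adjusted p = 0.016 and 0.011).

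Polymerases and ligases that act mainly in repair were called at shares near those of all genes tested (20.4% higher and 17.9% lower). Of the 14 genes of that list 2 rose, 2 fell and 10 were not called, and their median log2 fold change was 0.00. The genes that rose were the translesion polymerases POLH (1.38-fold) and POLK (1.36-fold). Among those that fell, LIG4, the ligase of end joining, stood at 5.16, 5.18 and 5.09 FPKM in the siDYRK2 libraries, against 5.86, 5.75 and 5.55 FPKM in the scramble libraries, a call lost in 7 of 16 alternative analyses with adjusted p up to 0.11, among them the fits without any 1 siDYRK2 library and without scramble replicate 1 or 2. The other gene that fell was POLL, a polymerase of base excision repair and end joining, with a log2 fold change of −0.15 (limma adjusted p = 0.041, named after its values were seen). The difference between this list and the fork members was not tested. In the list of other DNA methylation genes only HELLS, a remodeler needed for DNA methylation, rose (1.64-fold), and 7 of the 8 tested genes were not called.

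Chromatin and mitochondrial counterparts were counted as well. Of 16 other histone chaperones and their partners 10 rose and 0 fell, among them SSRP1, a FACT subunit (1.26-fold), TONSL, which reads newly deposited histones (1.40-fold), and RBBP7 (1.15-fold). Of 8 mitochondrial replication genes 6 rose and 0 fell, including the mitochondrial polymerase POLG (1.23-fold) and the RNA polymerase POLRMT (1.33-fold). Of 13 genes of the CUL4 ligase and of PCNA modification 5 rose, 1 fell and 7 were not called. Their median log2 fold change was 0.10, and all genes tested were called higher at 20.4% and lower at 17.9%. The ligase genes CUL4A, CUL4B, DDB1 and RBX1 were not called (named after their values were seen). HLTF, a PCNA ubiquitin ligase, rose 1.5-fold, and RAD18, which starts PCNA ubiquitination, rose 1.31-fold. The gene that fell was UBE2B, a ubiquitin-conjugating enzyme that works with RAD18 (log2 fold change −0.19, limma adjusted p = 0.017, named after its values were seen).

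**Figure D4:**
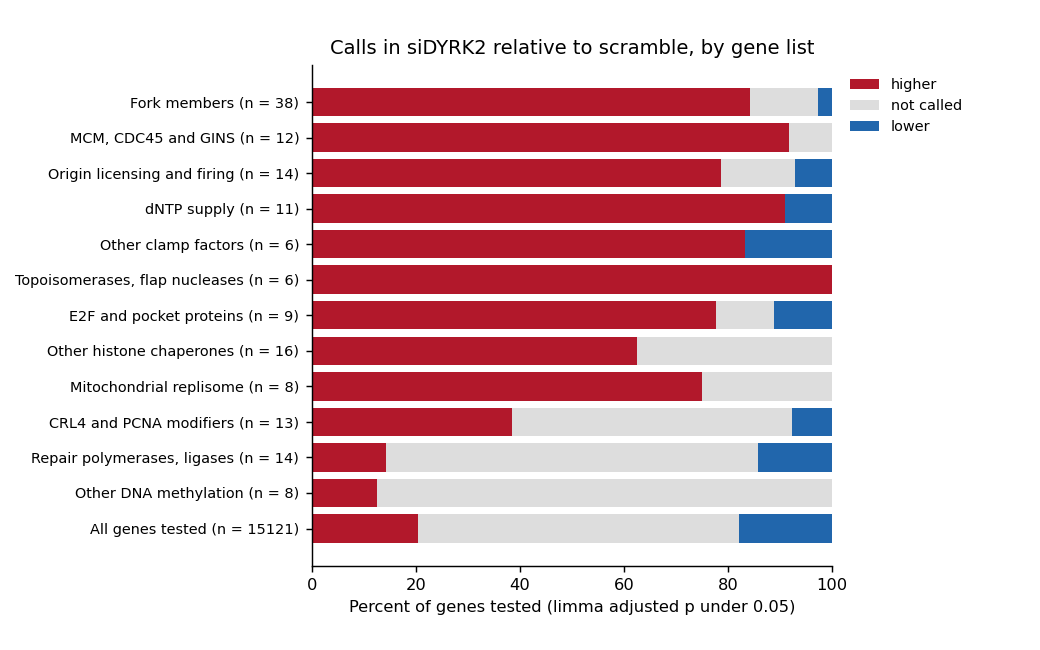
Percent of tested genes called higher, not called and called lower (limma adjusted p under 0.05, siDYRK2 relative to scramble) for the fork members, 11 other lists and all genes tested. The fork members stand at 32 of 38 higher, the repair list at 2 of 14, and all genes tested at 20.4% higher and 17.9% lower.

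The 38 members lie on 17 chromosomes, with 7 on chromosome 19. Exons of 22 members overlap those of another annotated gene. Same-strand overlaps not described above include those of POLD1 (426 bases), RNASEH2A (1123 bases) and DNMT1 (83 bases). By name, 7 members have a total of 11 processed pseudogenes, of which the 2 with a row reached at most 0.035 FPKM. The members' median level, 12.7 FPKM over the 6 libraries, was above the 4.75 FPKM of all genes tested.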

How the data were processed

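Libraries were made from Trizol-extracted, DNase-treated RNA of HK-2 cells for Illumina sequencing, per the labels' protocols. HISAT2, StringTie and the build GRCh38 are listed in the submitters' processing notes. No source used here states versions, annotation, strand use or filters. The authors deposited FPKM, rounded to 2 decimals, in 1 column per library, per the file headers. The 6 columns were matched by library name, 0 other sample columns were present, and no pair of columns was identical. FPKM is relative within a library, so an abundant transcript shifts the others.

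The 15121 genes that averaged 0.5 FPKM or more were tested together. limma 3.58.1 (R 4.3.3) was fitted to log2(FPKM + 0.5) using its mean-variance trend and without a block, and calls were made at 0.05 after Benjamini-Hochberg adjustment. Lists, ratios and promoters were handled in Python 3.11.15 with pandas 2.3.3, numpy 2.4.6 and scipy 1.17.1, and figures with matplotlib 3.10.9. Whole reads were looked for in short genes (43 to 63 values a library), and 30.2% to 40.0% lay within 0.1 of a whole multiple, against 20% by chance, so no count model was used and depth is unknown. Exon overlaps are from GENCODE v29. The limma step was tested on simulated data.

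The members and lists were chosen with earlier results of these data known. Named genes are all members, DYRK2, and up to 3 called genes with the smallest adjusted p of each other list, plus the few genes that the text says were named after their values were seen. Marker genes are given by their levels. Alternatives changed the pseudocount, filter, scaling, trend, block and libraries.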

Additional observations from a re-analysis of the deposited data

How the results depend on the processing

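Over 16 alternatives, 35 of the 38 members kept their direction and call. Between 31 and 32 members were called higher, and the members' median log2 fold change ranged from 0.40 to 0.45, with the lowest value, 0.398, at a pseudocount of 1. The number called lower was 2, with RNASEH2B beside POLD4, when limma was run without the trend, against 1 as reported and 1 under each of the other alternatives. Leaving out any 1 library gave 31 or 32 members called higher, 1 called lower and a median of 0.40 to 0.44. CHAF1A lost its call in 7 alternatives, with adjusted p of 0.056 to 0.088. POLD2, which was not called, changed sign without siDYRK2 replicate 2 (log2 fold change 0.0131), and leaving out each library in turn gave −0.0256 to 0.0131. All genes called numbered 4466 to 5841, against 5793 as reported, and the median over all genes tested stayed between −0.006 and 0.017, so no scaling shifted the background by more than 0.1.

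With the replicate number as a block, 31 members were called higher and 1 lower, and 4816 genes were called in all. Same-numbered libraries did not deviate together, with correlations of −0.0767, 0.0243 and −0.0884 for numbers 1, 2 and 3, so the numbers were not taken as pairs. Depth is unknown and no counting error could be given. Low members (RNASEH2B, POLA1, LIG1, POLA2) rest on values rounded to 2 decimals.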
